A study of Mus musculus with 148 samples.

Results

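The Neut Ifit3 neutrophils are 1 of 5 neutrophil populations that the authors separated among single immune cells of mouse lungs and mammary tumors, and the name refers to Ifit3, an antiviral gene induced by interferon. The members described here were all wells annotated Neut_Ifit3 in the deposited cell table, which were 639 of 24020 annotated wells, 2.73% of the 23425 immune cells and 16.1% of the 3972 neutrophils. The population is compared here with Neut Ptgs2, with 1492 cells, and Neut Lcn2, with 1604. The annotation came from clustering of these cells by expression, so differences between the populations are given as descriptions without tests, and tests are limited to comparisons of the same population between tissues.

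EO771 breast cancer cells carrying tdTomato were injected with Matrigel into a mammary gland of 8-week-old female C57BL/6 mice with a photoactivatable GFP (PA-GFP) transgene, tumors were removed after 3 weeks, and lungs were followed by weekly CT. The samples were 3 Control lungs, 3 Pre-MET lungs from mice that still bore the primary tumor, 6 Relapse-free lungs from mice in which no metastasis appeared, 14 samples of Distal normal tissue and 13 of metastasis-containing tissue (MET) from lungs with metastases, 13 MET cores, 7 MET invasive margins and 4 Primary tumors. Control lungs, labeled Normal, came from mice that bore no tumor. Mice 8, 9 and 10 each gave both a Pre-MET lung and a Primary tumor. All 27 mice were PA-GFP animals, and cells were sorted as CD31-CD45+ or, where a core or margin had been photoactivated, as CD31-GFP+. Each well of a 384-well plate received 1 cell, and mRNA molecules were counted by unique molecular identifiers (UMIs). The model rests on 1 tumor cell line, and the Control plates formed a sequencing batch of their own.

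Neutrophils are short-lived granulocytes that carry S100a8 and S100a9, the subunits of calprotectin, and load their granules in a fixed order during maturation in the marrow. Type I interferon signals through a cell surface receptor and induces genes such as Ifit1, Ifit3, Rsad2, Isg15 and the Oas, Mx and Schlafen families. Many, but not all, of these genes have a repeated GAAA element in their promoters. Their products block viral replication at several steps, and neutrophils with such a program have been described in blood, marrow and tumors. Ptgs2 encodes the prostaglandin synthase COX2 and is an NF-kB target, while Lcn2 encodes a specific granule protein.

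Neut Ifit3 wells were found in 38 of 63 samples and 21 of 27 mice. They came from Distal normal tissue (170 cells), Relapse-free lungs (137), MET (121), MET margin (100), Pre-MET (55) and MET core (52), with 3 cells from Control lungs and 1 from a Primary tumor. Mouse 17 alone gave 236 of the cells, 36.9%, in its Distal normal tissue, core and margin. Cells had a median of 886 UMIs, against 944.5 in Neut Ptgs2 and 1076 in Neut Lcn2. Expression was read from sums of UMIs, each over at least 10 cells from a tissue of 1 mouse, which left 16 sums of 10 to 106 cells and 6272 to 126186 UMIs, and levels are given as counts scaled to the same total in each sum (CPM). In the smallest sum, a single UMI is a level of 159 CPM. The 16 sums came from 13 mice, as mice 17 and 37 each gave more than 1, so n counts sums or samples and not mice.

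The transcripts of the cells were those of neutrophils. S100a8 and S100a9 were each detected in 639 of 639 cells, Csf3r, the G-CSF receptor, in 54.6% and Cxcr2, a chemokine receptor, in 44.4%, while the surface antigen gene Ly6g was detected in only 3.91%. Of 6 primary granule genes, Mpo, Ctsg and Ms4a3 had no UMI in any sum and Elane, Prtn3 and Prss57 had 5 in all. Of other lineages, Cd79a of B cells, Ace of monocytes and Flt3 of dendritic cells had no UMI in the sums. Of 6 lung epithelium and tumor markers, Krt8 and Krt18 had none, while the list as a whole had 51 UMIs, 30 of them from the surfactant gene Sftpc, at 34.9 ± 72.4 CPM (0 to 214). The 5 erythroid markers, mostly hemoglobin genes, had 213 UMIs at 211 ± 306 CPM (0 to 1058). The summed level of 8 T cell markers was 88.3 ± 107 CPM (SD, n = 16 sums, range 0 to 319), that of 6 B cell markers 197 ± 329.9 (0 to 1391), that of 6 NK cell markers 197 ± 247 (0 to 982) and that of 12 monocyte and macrophage markers 328 ± 206 (0 to 678). In the samples shared with Neut Ifit3, the mean monocyte and macrophage level was 635 ± 320 CPM in Neut Ptgs2 (n = 14) and 463 ± 192 in Neut Lcn2 (n = 16), with ranges that overlap that of Neut Ifit3. The 7 dendritic cell markers stood at 380.0 ± 365 CPM (0 to 1284) in Neut Ifit3, 313 ± 224 in Neut Ptgs2 and 224 ± 187 in Neut Lcn2.

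The gene that names the population was not what set it apart from Neut Ptgs2. Both populations reached 10 cells in 14 samples, where Ifit3 was at 621 ± 643 CPM in Neut Ifit3 and 691 ± 917 in Neut Ptgs2, and was higher in Neut Ifit3 in 8 samples and lower in 6. Rsad2, which encodes the antiviral enzyme viperin, was at 562 ± 371 against 799.7 ± 714 CPM and was higher in only 3 of 14 samples. Isg15, a ubiquitin-like protein, was at 324 ± 154 against 325 ± 215 CPM. The mean of Ifit3 rested on mouse 17. Without its 3 samples Ifit3 was at 349.8 CPM in Neut Ifit3 and 302 in Neut Ptgs2, higher in 7 of 11 samples, while Rsad2 stayed lower, at 453 against 629.6 CPM and higher in 2 of 11.

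Against Neut Lcn2, the same genes were higher in Neut Ifit3. Ifit3 was at 602 ± 601 against 349 ± 429 CPM and higher in 14 of 16 samples, Rsad2 was at 526 ± 359 against 348 ± 313 and higher in 14, and Isg15 was at 315 ± 149.8 against 225 ± 101 and higher in 13. Without mouse 17, Ifit3 was at 368 against 172 CPM and higher in 11 of 13 samples, Rsad2 at 426 against 244 and higher in 11, and Isg15 at 279 against 207 and higher in 10. The exceptions for Ifit3 were the MET samples of mice 24 and 28, in which the Neut Ifit3 sums held 1 and 0 Ifit3 UMIs. The gene in the label was thus mostly higher than in Neut Lcn2 and not set apart from Neut Ptgs2 in these counts, and the population is called here by its annotation alone. The genes that name the other populations were lower in Neut Ifit3 than in the populations named for them. Ptgs2 was at 866 against 1665 CPM in Neut Ptgs2, lower in 13 of 14 samples, and had a UMI in 25.5% of Neut Ifit3 against 49.6% of Neut Ptgs2 cells. Lcn2 was at 655 against 1510.2 CPM in Neut Lcn2, lower in 13 of 16 samples, and had a UMI in 26.4% against 60.1% of cells. Whether the deposited name was attached to the intended wells was not tested, so every share and level here is that of the wells carrying the annotation. Reads that mapped to several positions had been excluded, so the levels of near-identical neighbors such as Ifit3 and Ifit3b are uncertain.

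A list of 74 interferon-induced genes, which leaves out the 4 Ifitm genes, gave in its sum the same picture as its best known members. Their summed level was 19191 ± 6765 CPM in Neut Ifit3 and 20323 ± 9532 in Neut Ptgs2 of the same 14 samples, higher in 7 and lower in 7. It was 18826 ± 6428 CPM against 15983 ± 5653 in Neut Lcn2 and higher in 12 of 16 samples. S100a8 and S100a9 took 14.8 ± 3.25% of the UMIs in Neut Ifit3 and 9.63 ± 2.69% in Neut Ptgs2, which lowers every other level, and with both left out of the total the sums became 22572 ± 8233 and 22555 ± 10806 CPM, higher in 8 of 14 samples. Against Neut Lcn2, S100a8 and S100a9 took 15.7 ± 3.98% in Neut Ifit3 and 20.2 ± 4.96% in Neut Lcn2. With both left out there, the sums were 22352 ± 7736 and 20029 ± 7090 CPM, higher in 11 of 16 samples, and Rsad2 was higher in 13. The plot of interferon genes by sample shows the overlap of the populations.

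**Figure D1:**
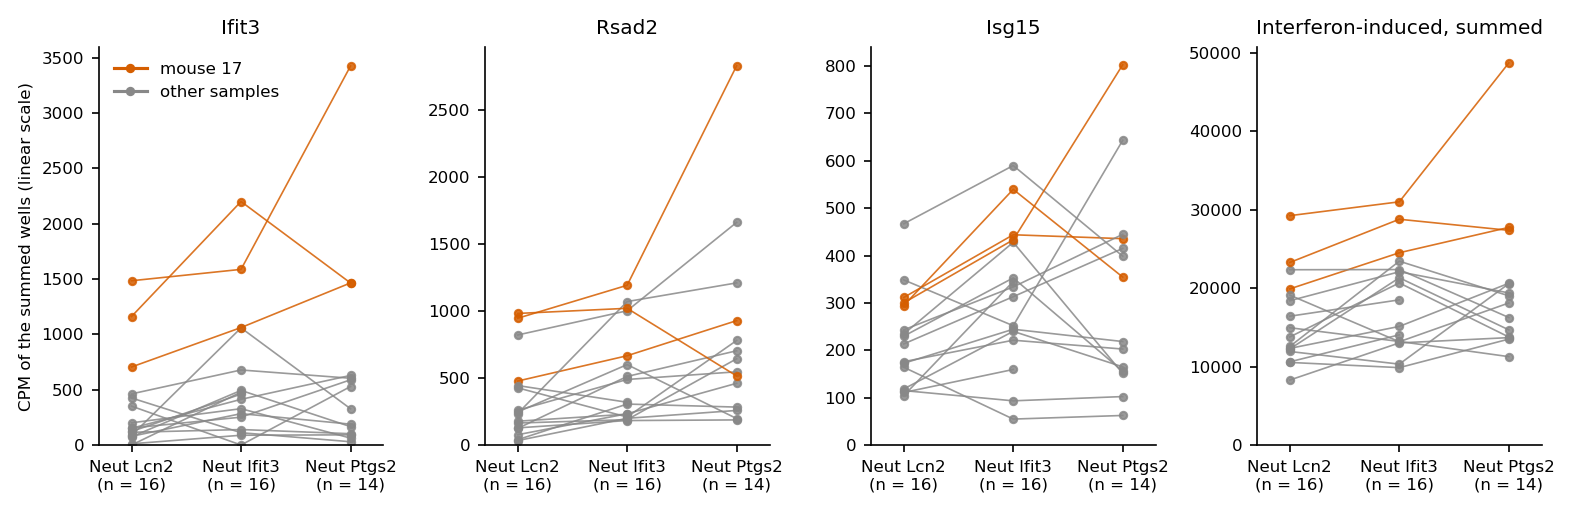
CPM of Ifit3, Rsad2, Isg15 and the sum of 74 interferon-induced genes in sums of at least 10 cells, by population, with a line joining the populations of 1 sample and mouse 17 in orange. Neut Ifit3 values lie mostly above those of Neut Lcn2 and within the range of Neut Ptgs2, and the highest Ifit3 level in Neut Ifit3, 2201 CPM, is from the invasive margin of mouse 17.

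Of the 74 genes, 50 reached a mean of 50 CPM in Neut Ifit3 or Neut Ptgs2. There, 17 were higher and 33 lower in Neut Ifit3 by their mean level, and none was 2-fold higher once 10 CPM had been added to each mean, with a median log2 ratio on that scale of -0.10, which is close to the median of -0.09 over all 2905 genes at that level. Over all genes, 43% were higher and 57% lower in Neut Ifit3, 4.75% were at least 2-fold higher and 9.23% at least 2-fold lower. Stat2, a transcription factor gene of interferon signaling, was lower in 10 of 14 samples and higher in 0, at 17.9 ± 34.3 against 60.9 ± 52.8 CPM. Its level rests on 16 UMIs in 4 Neut Ifit3 sums, and without the Distal normal tissue of mouse 37 it was 11.1 CPM. The chemokine gene Cxcl10 was at 87.1 against 222 CPM, means that each rest on few samples: 27 of the Cxcl10 UMIs of Neut Ifit3 came from the Distal normal tissue of mouse 37, without which its mean was 20.5 CPM, and without mouse 17 the order turned, at 99.2 against 84.3. Of the 5 members grouped as RNA and DNA sensors at that level, 4 were higher and 1 lower, with a median log2 ratio of 0.30. Ddx58 (RIG-I), of that group, and Eif2ak2 (PKR), an RNA sensor grouped here with the Mx and Oas genes, were among the 50 genes with the highest ratios. They were at 125 against 59.4 and 179.8 against 95.1 CPM, but each was higher in 7 of 14 samples. The mean of Eif2ak2 rests on 10 UMIs in the MET sample of mouse 24, without which the levels were 108 and 102 CPM.

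Against Neut Lcn2, 48 of the 74 genes reached that level, of which 33 were higher and 15 lower, with a median log2 ratio of 0.36 beside 0.14 over all 2613 genes. Over all genes, 59.4% were higher and 40.6% lower, 8.92% at least 2-fold higher and 4.25% at least 2-fold lower. This direction over all genes depends on the measure. By the mean of the log2 ratios of single samples, 52 genes were at least 2-fold higher and 193 at least 2-fold lower, with a median of -0.11. The gene lists were not counted in that way. Among the 6 groups that make up the 74 genes, the Ifit and Rsad2 group led, with 7 of 8 members higher and a median of 0.63. Ifit1 was the exception by its mean, at 589.5 against 628 CPM, although it was higher in 10 of 16 samples and lower in 6. Schlafen gene Slfn4 was at 1968 ± 913 CPM in Neut Ifit3 against 1329 in Neut Lcn2, higher in 14 of 16 samples, and in the 14 samples shared with Neut Ptgs2 it was at 1829 against 1938. Rtp4 and Ifi27l2a, the latter the most abundant of the list at 2971 ± 1796 CPM, differed little from Neut Lcn2, with log2 ratios of -0.03 and -0.07. The plot of gene lists shows these medians beside those of the other groups.

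**Figure D2:**
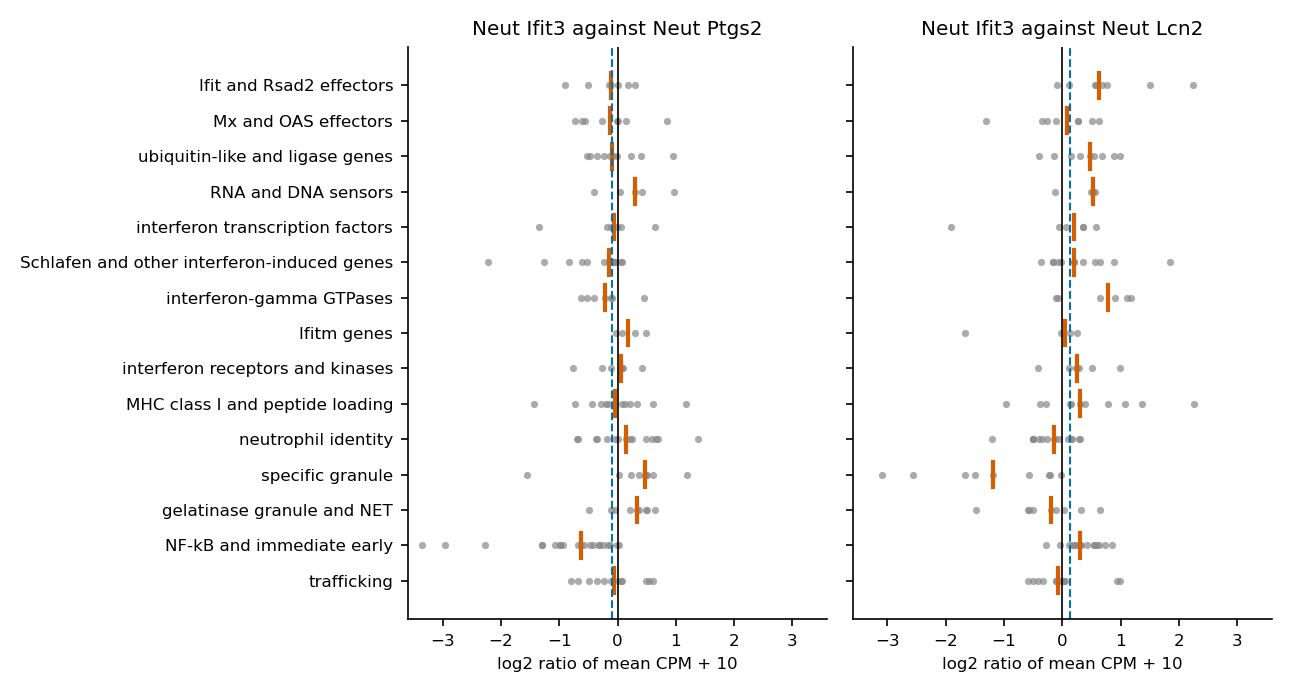
Log2 ratio of mean CPM + 10 of Neut Ifit3 to Neut Ptgs2 (14 samples) and to Neut Lcn2 (16 samples), by gene list, with each member at 50 CPM or more as a grey point, the median of the list as an orange bar and the median of all genes as a dashed blue line. The NF-kB list has its median at -0.62 against Neut Ptgs2, and the specific granule list at 0.47 against Neut Ptgs2 and -1.19 against Neut Lcn2.

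In single cells, Ifit3 was absent from most Neut Ifit3 cells at this depth. It had a UMI in 127 of 639 cells, 19.9%, compared with 19.1% of Neut Ptgs2, 12.3% of Neut Lcn2 and 5.85% of T and B cells, which had a median of 997 UMIs and give a level for cells not named for the gene, although lymphocytes can respond to interferon. With every cell thinned to 500 UMIs, the share was 15.5% in Neut Ifit3, 14.9% in Neut Ptgs2 and 7.23% in Neut Lcn2. These shares rested on mouse 17, which gave 83 of the 127 cells. Its Neut Ifit3, Neut Ptgs2 and Neut Lcn2 cells had Ifit3 in 35.2, 41.3 and 35.0%, or 27.5, 32.2 and 19.9% after thinning. Without mouse 17 the shares were 10.9% (44 of 403 cells), 11.1% and 6.93%, or 8.44%, 8.75% and 4.24% after thinning. Rsad2 had a UMI in 17.5% of Neut Ifit3 cells (12.2% after thinning), 19.2% of Neut Ptgs2 (14.6%) and 15.3% of Neut Lcn2 (9.73%), and without mouse 17 in 10.7%, 15.5% and 11.7%, or 8.19%, 11.9% and 7.70% after thinning, where the order of Neut Ifit3 and Neut Lcn2 turned. Of the 425 neutrophils with at least 2 Ifit3 UMIs, 22.4% were annotated Neut Ifit3, 48% Neut Ptgs2 and 25.9% Neut Lcn2, while these populations were 16.1%, 37.6% and 40.4% of all neutrophils. Mouse 17 gave 259 of these 425 cells. Without it, the shares of the 166 that remained were 19.9%, 46.4% and 28.3%, beside 13.5%, 36.7% and 43.4% of all neutrophils. In the 11 samples of other mice where Neut Ifit3 and Neut Ptgs2 both reached 10 cells, they were 27.4%, 34.5% and 32.1% of 84 cells, beside 18%, 32.6% and 43.8%.

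The Ifit3 UMIs lay in a minority of the cells. Of the 127 cells with the gene, 95 had at least 2 UMIs, and the highest had 31. After thinning, 99 Neut Ifit3 cells held Ifit3 and 540 did not. Among the cells with Ifit3, Rsad2 was detected in 31.3% against 8.70% of those without, Ifit1 in 34.3% against 9.07%, Isg15 in 26.3% against 9.07%, Ifit3b in 34.3% against 5.19% and Slfn4 in 58.6% against 33.9%. Since 65 of the 99 cells came from mouse 17, part of this contrast lies between mice. Within mouse 17, Rsad2 was detected in 35.4% against 12.9% and Ifit1 in 41.5% against 16.4%, and in the other mice Rsad2 was detected in 8 of 34 cells (23.5%) against 6.78% and Ifit1 in 7 of 34 (20.6%) against 5.69%. Wfdc17 was detected in 99.0% against 97.0% and Ptgs2 in 20.2% against 20%. Lcn2 was detected in 15.2% against 19.4%, with 20% against 17.0% in mouse 17 and 2 of 34 cells (5.88%) against 20.6% in the others. With Ifit3 itself left out of the sum, the median number of UMIs of the other 73 interferon-induced genes was 15 of 500 in the cells with Ifit3 and 6 in those without, 16 and 9 within mouse 17 and 12 and 5 in the other mice. The unthinned depth of the cells with and without Ifit3 differed, at medians of 1020 and 864.5 UMIs.

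Over the whole population the median was 7 interferon-induced UMIs of 500, compared with 8 in Neut Ptgs2 and 6 in Neut Lcn2. At least 20 were found in 73 Neut Ifit3 cells, 11.4%, in 214 Neut Ptgs2 cells, 14.3%, and in 75 Neut Lcn2 cells, 4.68%. In the samples shared by Neut Ifit3 and Neut Ptgs2 without mouse 17 these were 14 of 303 cells (4.62%), 41 of 551 (7.44%) and 18 of 739 (2.44%). Of the 136 neutrophils with at least 30, Neut Ifit3 made up 14.7%, Neut Ptgs2 66.2% and Neut Lcn2 9.56%, but these came in part from samples with few or no Neut Ifit3 cells. In the 14 shared samples, 101 neutrophils had at least 30. Of them 19.8% were Neut Ifit3, 58.4% Neut Ptgs2 and 9.90% Neut Lcn2, beside 20.2%, 35.4% and 39.1% of all neutrophils there. Without mouse 17 there were 27, of which 5 were Neut Ifit3, 13 Neut Ptgs2 and 3 Neut Lcn2. The plot of interferon UMIs per cell shows the whole distribution.

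**Figure D3:**
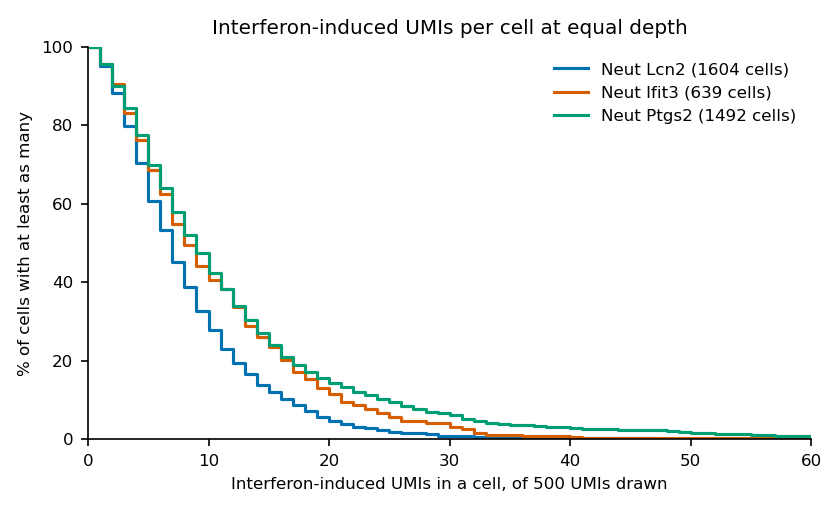
Share of cells with at least a given number of interferon-induced UMIs, with every cell thinned to 500 UMIs, in 639 Neut Ifit3, 1492 Neut Ptgs2 and 1604 Neut Lcn2 cells (axis ends at 60). At 20 UMIs or more, 11.4% of Neut Ifit3, 14.3% of Neut Ptgs2 and 4.68% of Neut Lcn2 cells remain.

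The promoters of Ifit3 and of Rsad2 and Isg15, which were detected more often in cells with Ifit3, are shown beside that of Wfdc17, which was detected in nearly every Neut Ifit3 cell. Each runs from 250 bases before to 50 bases after the RefSeq start site (GRCm38.p6, 5′ to 3′ on the strand of the gene), with the searched motif in capitals: 2 copies of GAAA separated by any 2 bases, on either strand, which reads as 2 copies of TTTC where the match is on the other strand. The regions are chr19:34583279-34583578 on the plus strand for Ifit3, chr12:26456403-26456702 on the minus strand for Rsad2, chr4:156200769-156201068 on the minus strand for Isg15 and chr11:83703806-83704105 on the plus strand for Wfdc17. In the mm10 gene annotation Ifit3 spans chr19:34583531-34588731, Rsad2 chr12:26442746-26456452 and Wfdc17 chr11:83703991-83706268.
Ifit3: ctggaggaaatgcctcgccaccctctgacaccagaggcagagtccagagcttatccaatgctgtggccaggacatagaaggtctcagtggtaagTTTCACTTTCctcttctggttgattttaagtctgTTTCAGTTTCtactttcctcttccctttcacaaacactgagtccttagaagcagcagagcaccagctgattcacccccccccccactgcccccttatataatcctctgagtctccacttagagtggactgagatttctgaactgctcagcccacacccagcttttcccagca
Rsad2: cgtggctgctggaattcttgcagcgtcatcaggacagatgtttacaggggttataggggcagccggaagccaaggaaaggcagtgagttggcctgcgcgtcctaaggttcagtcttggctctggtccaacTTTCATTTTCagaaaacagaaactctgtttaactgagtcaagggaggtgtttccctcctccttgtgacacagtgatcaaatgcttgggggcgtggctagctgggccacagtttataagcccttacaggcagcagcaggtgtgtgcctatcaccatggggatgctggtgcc
Isg15: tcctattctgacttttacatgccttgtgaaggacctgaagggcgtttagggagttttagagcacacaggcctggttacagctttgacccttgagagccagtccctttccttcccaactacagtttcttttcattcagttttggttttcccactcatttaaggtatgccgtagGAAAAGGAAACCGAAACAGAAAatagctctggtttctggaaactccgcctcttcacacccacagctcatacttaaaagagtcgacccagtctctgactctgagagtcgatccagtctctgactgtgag
Wfdc17: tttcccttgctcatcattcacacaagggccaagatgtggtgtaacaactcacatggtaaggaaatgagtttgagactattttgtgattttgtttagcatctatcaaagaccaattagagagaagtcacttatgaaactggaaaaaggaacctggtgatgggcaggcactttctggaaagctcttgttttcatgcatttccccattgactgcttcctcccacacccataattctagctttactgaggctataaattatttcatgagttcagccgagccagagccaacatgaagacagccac
Ifit3 held 2 matches, beginning 156 and 122 bases before its start site, Rsad2 held 1 at 120 bases, Isg15 held 3 that overlap, at 78, 72 and 66 bases, and Wfdc17 held 0. Of the 56 interferon-induced genes with a promoter in the table, 27 (48.2%) had a match, compared with 1079 (3.99%) of 27025 promoters of all genes, and 0 of 17 promoters of the NF-kB list and 0 of 10 of the specific granule list had one. Of 10 promoters of guanylate-binding and IRG GTPase genes, 9 had a match, and of 18 in the list with the Schlafen genes, 5 had one. A match describes letters in this window and not binding.

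Wfdc17 was the only gene besides S100a8 and S100a9 that was higher in Neut Ifit3 than in Neut Ptgs2 in every shared sample. It encodes a small secreted protein with a whey acidic protein domain. It was found in 634 of 639 cells, 99.2%, compared with 60.6% of Neut Ptgs2 and 93.1% of Neut Lcn2. Its level in the 16 sums ran from 13347 over a median of 20459.6 to 58675 CPM, with the highest in the Distal normal tissue of mouse 26. It was higher than in Neut Ptgs2 in 14 of 14 samples, at 20997 ± 5589 against 11173 ± 5065 CPM, and higher than in Neut Lcn2 in 12 of 16, at 24441 ± 11371 against 19547 ± 8279. No gene was 2-fold higher or 2-fold lower in every sample, which was 0% of 2905 genes against Neut Ptgs2 and 0% of 2613 against Neut Lcn2.

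A difference in the same direction in every sample was found for 6 genes against Neut Ptgs2, 0.207% of the genes compared. The count changed with the minimum of cells, which also changes how many samples must agree. There were 3 genes (2 higher and 1 lower) where at least 5 cells of both were required (19 samples). Where at least 20 were required (9 samples) there were 26 (7 higher and 19 lower). Wfdc17, S100a8 and Malat1 kept their direction in every sample at both minimums, while S100a9, Slc7a11 and Socs3 did not at 5 cells. The calprotectin genes were higher in Neut Ifit3, S100a8 at 108408 ± 25075 against 68347 ± 20477 CPM and S100a9 at 39294 ± 8822 against 27979 ± 6928, and Wfdc17 was the third. The genes that were lower in all 14 samples were Slc7a11, the cystine transporter, at 798 ± 446 against 1712 ± 768 CPM, Socs3, an inhibitor of cytokine signaling, at 325 ± 227 against 559 ± 351, and the nuclear RNA Malat1 at 27126 ± 9133 against 36329.8 ± 11094. For Slc7a11 the sums of Neut Ifit3 ran from 131 over a median of 669 to 1533 CPM and those of Neut Ptgs2 in the same samples from 460.2 over 1726 to 2927, so the ranges overlapped although each sample had the same order. Some differences were slight, with log2 ratios nearest to 0 of -0.014 for Malat1, -0.037 for Socs3, 0.036 for S100a9 and 0.052 for Wfdc17. The larger share of S100a8 and S100a9 in Neut Ifit3 lowers its other levels, and its part in the order of Malat1 and Socs3 was not tested.

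Against Neut Lcn2, 2 genes (0.0765%) were lower in all 16 samples and none was higher in all. With at least 5 cells of both (22 samples) there were 0 such genes, and with at least 20 (10 samples) 10 were higher and 7 lower. The 2 genes lower in all 16 samples were Glrx, a glutaredoxin, at 104 ± 96.3 against 295 ± 99.1 CPM, and Wfdc21, a granule protein gene of the same domain family as Wfdc17, at 997 ± 543 against 2831 ± 989. Glrx rests on few molecules, with 0 UMIs in 4 of the 16 Neut Ifit3 sums and at most 26 in any. In 15 of 16 samples, Neut Ifit3 was lower for Mmp8, the neutrophil collagenase (701 against 1971 CPM), Retnlg, a resistin-like secreted protein (8185 against 18841), and S100a9 (42039.8 against 50586), and higher for B2m, the light chain of MHC class I (3339 against 2561), Malat1 (26966 against 21283) and Snord15b (227 against 87.9). These genes were chosen after their values were seen, as those that missed the rule by 1 sample. The plot of leading genes by sample shows the order of the populations within each sample.

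**Figure D4:**
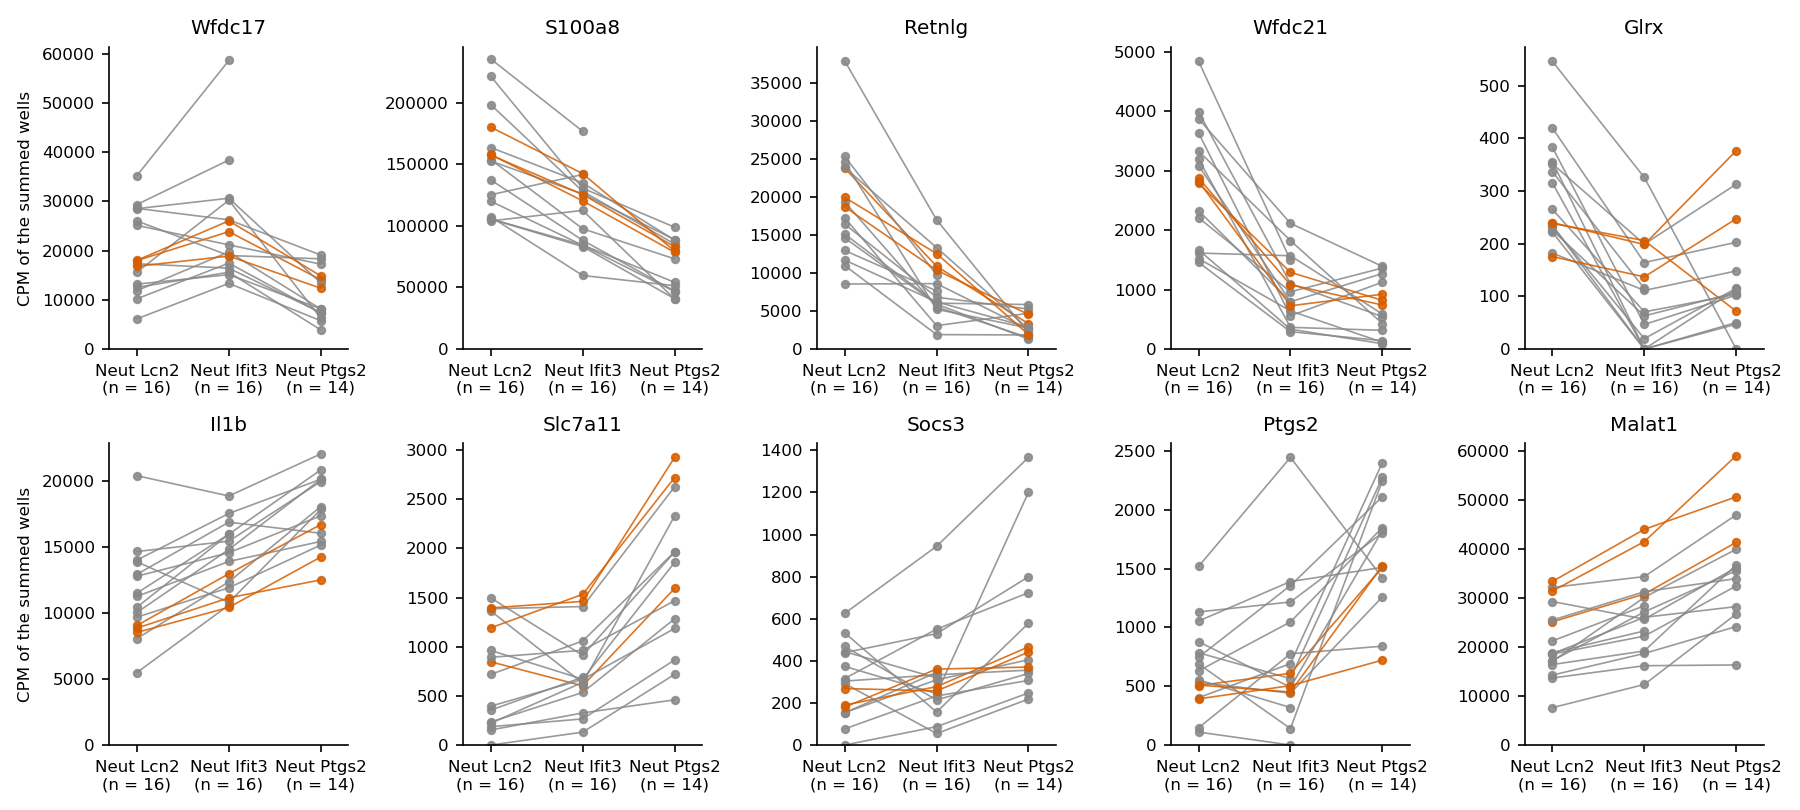
CPM of 10 genes in sums of at least 10 cells of Neut Lcn2 (n = 16), Neut Ifit3 (n = 16) and Neut Ptgs2 (n = 14), each panel with its own axis from 0, lines joining populations of 1 sample and mouse 17 in orange. Retnlg and S100a8 decrease and Il1b and Malat1 increase from left to right in most samples, with Neut Ifit3 between, while Wfdc17 is lowest in Neut Ptgs2.

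For NF-kB and for granule genes, Neut Ifit3 stood between the other populations. Of 21 NF-kB and immediate early genes at 50 CPM, 20 were lower in Neut Ifit3 than in Neut Ptgs2, with a median log2 ratio of -0.62, and 6 were at least 2-fold lower. The inflammatory cytokine gene Il1b was at 14096 ± 2634 against 17578 ± 2772 CPM and lower in 13 of 14 samples, the NF-kB inhibitor Nfkbia at 2527 against 4035 and lower in 13, and the stress gene Ier3 at 436 against 1089.6 and lower in 12. The chemokine gene Ccl4 was at 210.1 against 1703 CPM, but 16555 CPM in the core of mouse 17 carried that mean in Neut Ptgs2, and without mouse 17 the levels were 180.7 and 598. Against Neut Lcn2 the order was the opposite, with 15 of 17 members higher and a median of 0.30. Il1b was at 13992 against 11334 CPM and higher in 14 of 16 samples, and Nfkbia at 2416 against 1656 and higher in 13.

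Granule genes ran the other way. Of 9 specific granule genes, 8 were higher in Neut Ifit3 than in Neut Ptgs2 (median log2 ratio 0.47) and 9 were lower than in Neut Lcn2 (median -1.19, with 5 at least 2-fold lower). The list counts Wfdc21 and also Ifitm6, which belongs to the Ifitm genes as well. Ifitm6 was at 469 against 332 CPM in Neut Ptgs2, higher in 8 of 14 samples, and at 591 against 1905 in Neut Lcn2, lower in 14 of 16. Lcn2 was at 699 against 537 CPM in Neut Ptgs2, and lysozyme Lyz2 at 2263 against 1598 and at 2307 against 3443. Ngp, a granule gene of immature neutrophils, was at 90.4 against 586 CPM in Neut Lcn2 and lower in 13 of 16 samples. Against Neut Ptgs2 it was at 86.9 and 32.5 CPM, higher in 6 and lower in 4 of 14 samples, and without mouse 37 the order turned, at 15.96 and 24.8. Retnlg followed the granule genes, at 8109 ± 4233 against 3088 ± 1450.1 CPM and higher in 13 of 14 samples than in Neut Ptgs2. Of the receptors that guide migration, Cxcr2 was the lowest of the 3 populations in Neut Ifit3, at 1094 against 1759 CPM in Neut Ptgs2 (lower in 12 of 14 samples) and at 999 against 1413 in Neut Lcn2 (lower in 13 of 16).

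MHC class I genes are also induced by interferon. Of 12 members at 50 CPM, 6 were higher and 6 lower than in Neut Ptgs2 with a median log2 ratio of -0.04, and of 11 against Neut Lcn2, 8 were higher and 3 lower with a median of 0.30. The guanylate-binding and IRG GTPase genes, targets mainly of interferon-gamma, had 1 of 7 members higher against Neut Ptgs2 (median -0.21) and 4 of 6 higher against Neut Lcn2 (0.78). All of these members were low, with Gbp2, the most abundant, at 327 CPM in the 16 Neut Ifit3 sums. Of the 4 Ifitm genes, 3 were higher and 1 lower than in Neut Ptgs2 (median 0.19), and 2 were higher and 2 lower than in Neut Lcn2 (0.05).

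The intermediate place of Neut Ifit3 was counted over the genes that separated the other populations. In the 14 samples with all 3, 361 genes were at least 2-fold higher in Neut Ptgs2 than in Neut Lcn2, and for 267 of them (74.0%) the mean level of Neut Ifit3 lay between, at a median position of 0.36 where 0 is the level of Neut Lcn2 and 1 that of Neut Ptgs2 on the log2 scale. Of 103 genes at least 2-fold lower in Neut Ptgs2, 69 (67.0%) lay between, with a median position of 0.58. Choosing genes for the difference between a pair of populations in itself favors a position between them for another population, so the counts describe the order and are no evidence of a transition.

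Within Neut Ifit3, the level of interferon genes varied widely between mice. In the 3 tissues of mouse 17, the Distal normal tissue, core and margin, Ifit3 was at 1062, 1588 and 2201 CPM. Its levels in the Neut Ptgs2 cells of the same tissues were 1465, 3427 and 1465 CPM and in the Neut Lcn2 cells 706, 1485 and 1162. In Relapse-free mice 7, 11 and 18, Ifit3 was at 284, 88.5 and 328 CPM in Neut Ifit3. The Pre-MET mice 9 and 10 had 139.9 and 1059 CPM, the Distal normal tissue of mice 26 and 37 had 460.2 and 494, and the 6 MET samples ran from 0 over a median of 332 to 678.

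The 3 sums of mouse 17 were thus the highest of the 16 for Ifit3, and their mean of 1617 CPM compares with 368 ± 284 in the other 13. For Rsad2 the means were 959 ± 268 CPM in mouse 17 and 426 ± 303 in the others, but the MET samples of mice 24 and 28, at 1001 and 1069.6 CPM, lay within its range. The sum of the 74 interferon-induced genes was 24496, 30984 and 28764 CPM in mouse 17 and 9859 to 23420 in the other 13 sums, which do not overlap. In mouse 17, an Ifit3 UMI was found in 31.1% of cells of the Distal normal tissue, 41.5% of the core and 37.1% of the margin, and in 3.12% to 6.25% of cells in the 3 Relapse-free mice. All tissues of mouse 17 and Relapse-free mouse 18 came from the same sequencing batch, in which Ifit3 was at 328 CPM in mouse 18. The part of the batch or of the lesions in these levels was not tested.

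Expression in Neut Ifit3 was then compared between tissues with mice as replicates, to ask whether the population itself changed with metastatic stage. Among 683 genes tested by edgeR on 14 sums, none passed an adjusted p of 0.05 between Pre-MET (n = 2) and Relapse-free (n = 3), between Distal normal tissue (n = 3) and Relapse-free or between MET (n = 6) and Distal normal tissue, which is 0% in each. At an unadjusted p under 0.05 there were 27, 28 and 24 genes, and DESeq2 called 0, 2 and 0. Ifit3 differed by a log2 fold change of 1.25 (SE 0.92), 1.52 (SE 0.83) and -1.16 (SE 0.72) in these comparisons, with adjusted p of 0.986, 0.981 and 0.988.

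The interferon-induced list leaned towards Distal normal tissue over Relapse-free lungs, with 17 of 21 tested members higher and a median log2 fold change of 0.57, beside -0.04 over all genes, yet 0 of them passed the test and 3 had an unadjusted p under 0.05. Slfn4 had the smallest adjusted p among them, 0.299, with a log2 fold change of 1.70 (SE 0.55). Mouse 17 is 1 of the 3 Distal normal tissue sums, and those of mice 26 and 37 came from batches without a Relapse-free sum. Between Pre-MET and Relapse-free lungs, 11 members were higher and 10 lower, and between MET and Distal normal tissue 10 were higher and 11 lower.

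The genes nearest to a call lay outside the interferon-induced list. Tagln2, an actin-binding protein gene, was at 420.0, 3106 and 1058 CPM in Distal normal tissue of mice 17, 26 and 37. In Relapse-free mice 7, 11 and 18 it was at 239.9, 88.5 and 146, with a log2 fold change of 3.10 (SE 0.86, adjusted p = 0.228). In MET it ran from 0 to 567 CPM, with a log2 fold change of -2.77 (SE 0.73, adjusted p = 0.192) to Distal normal tissue. Ifitm6, an Ifitm gene that was lower in Neut Ifit3 than in Neut Lcn2 in 14 of 16 samples (591 against 1905 CPM), was at 452, 2416 and 1587 CPM in Distal normal tissue and 284, 243 and 146 in Relapse-free mice (log2 fold change 2.56, SE 0.75, adjusted p = 0.228). In Neut Lcn2 cells of Distal normal tissue of mice 26 and 37 Ifitm6 was also high, at 5637 and 4903 CPM. In the comparison with Relapse-free lungs, batch and tissue cannot be told apart for mice 26 and 37. Their batches did hold MET sums. In the batch of mouse 26, Tagln2 had 4 UMIs of 9349 in MET of mouse 28 and 27 of 8692 in Distal normal tissue, and Ifitm6 had 7 and 21. In that of mouse 37, Tagln2 had 0 of 19163 and 9 of 15884 in MET of mice 32 and 37 and 30 of 28351 in Distal normal tissue. Ifitm6 had 4, 8 and 45 there. Mouse 17 shared a batch with Relapse-free mouse 18, and there Tagln2 was at 420.0 and 146 CPM and Ifitm6 at 452 and 146.

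Vamp8, a SNARE protein gene of granule exocytosis, was at 46.6 and 81.5 CPM in Pre-MET mice 9 and 10, which are 1 and 2 UMIs, and at 785, 442 and 1660.4 in Relapse-free mice, with a log2 fold change of -3.91 (SE 0.99) and an adjusted p of 0.118. In Neut Ptgs2 the same Pre-MET mice were at 460.2 and 328 CPM and in Neut Lcn2 at 1073 and 661.

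The share of neutrophils annotated Neut Ifit3 was compared between tissues to ask at which stage and place these cells were found, over samples with at least 10 neutrophils. In Control lungs it was 0, 8.33 and 0%, where 0 of 13 and 0 of 31 neutrophils allow shares of up to 23.1% and 9.68%. In Pre-MET lungs it was 25.9, 32.9 and 34.3%, a mean of 31.0 ± 4.49% (n = 3) against 2.78 ± 4.81% (n = 3) in Control lungs. Neut Ptgs2 made up 80.2 ± 6.95% of neutrophils in Control and 33.0 ± 14.4% in Pre-MET lungs. The shares of Neut Ifit3 did not overlap between these groups, and the exact two-sided permutation p of 0.1 is the smallest that 3 against 3 samples allow. All Control plates came from a batch of their own, so batch and group cannot be told apart here.

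In Relapse-free lungs the share was 6.90, 26.4, 22.4, 33.3 and 2.70%, a mean of 18.3 ± 13.1% (n = 5), with an exact permutation p of 0.107 to Control and 0.179 to Pre-MET. Pre-MET minus Relapse-free was 12.3 percentage points within 1 batch (2 against 2 samples) and -1.82 points within another (2 against 1). The order of these groups did not hold in both batches, which are small and share cells of mice 7 and 10.

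In lungs with metastases, Distal normal tissue had a share of 10.3 ± 7.97% (n = 9, from 0 over a median of 6.59 to 25.7%) and MET one of 17.3 ± 10.0% (n = 9, from 4.17 over 15.4 to 38.5%), with an exact permutation p of 0.118. In the 6 mice with both tissues the share was higher in MET in 5 and lower in 1, by a mean of 9.73 points with an exact sign-flip permutation p of 0.0625 in this paired fit. Within 3 batches the difference was 2.48, 16.7 and 8.00 points, from 3 against 4, 1 against 2 and 4 against 2 samples. With each sample left out in turn, the unpaired difference ran from 4.37 to 8.95 points, with unadjusted exact permutation p of 0.0344 to 0.235. The largest difference and smallest p came without the Distal normal tissue of mouse 17, at 25.7% the highest of its group. As a share of all immune cells MET and Distal normal tissue differed by 0.000659 percentage points. The Distal normal tissue of mouse 17 was again the highest of its group, with 106 of 752 immune cells, and mouse 37 was next with 24 of 656.

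The difference of Distal normal tissue to Relapse-free lungs was -8.09 points (exact permutation p = 0.184), and -12.0 to -4.34 with each sample left out in turn. It was -7.67 points in 1 batch (1 against 1 sample) and had the opposite sign, 3.03 points, in another (2 against 1). As a share of all immune cells the direction turned. MET cores had a share of 8.02 ± 6.79% (n = 6, from 0 over a median of 5.72 to 18.1%) and margins of 0, 5.56, 7.14, 25.9 and 26.7%, a mean of 13.1 ± 12.4% (n = 5), with an exact permutation p of 0.385, both sorted by photoactivated GFP. With each sample left out in turn, the unpaired core minus margin ran from -8.31 to -1.64 points. In the 4 mice with both, the core was lower in 3 and equal in 1. Core minus margin was -7.81, -13.3 and -2.07 points within 3 batches, from 1 against 1, 2 against 2 and 2 against 1 samples. After Benjamini-Hochberg adjustment over the 6 comparisons the p-values were 0.221 for the first 5 and 0.385 for core and margin, so none of the differences passed. The 2 Primary tumors with enough neutrophils had 1 of 13 and 0 of 13. The samples at 0 were small, and 0 of 11 in Distal normal tissue, 0 of 19 in a core, 0 of 12 in a margin and 0 of 13 in a tumor allow shares of up to 27.3, 15.8, 25 and 23.1%. The plot of shares by tissue shows the spread within each group.

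**Figure D5:**
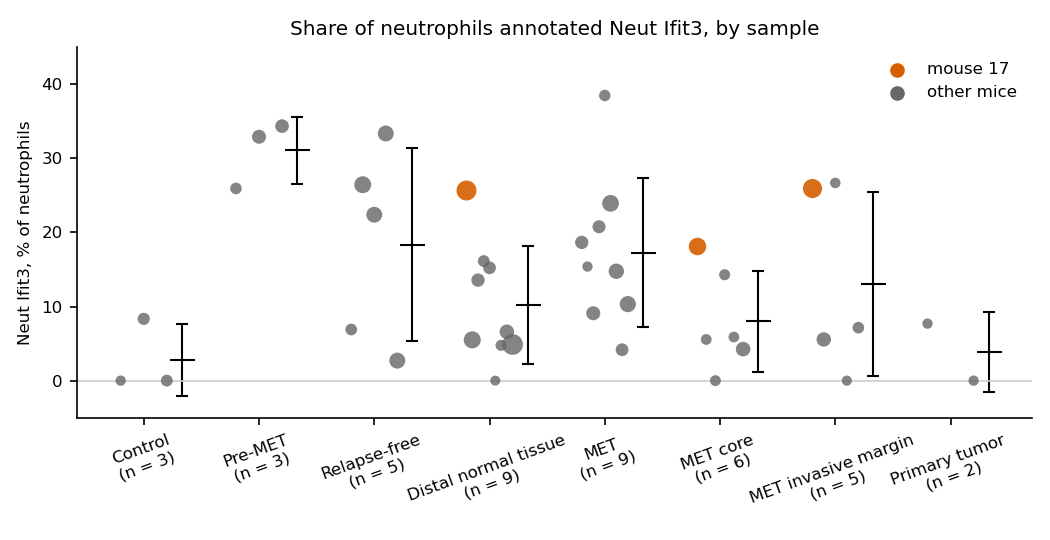
Percentage of neutrophils annotated Neut Ifit3 per sample with at least 10 neutrophils, by tissue, with the mean and SD as bars. The 3 Pre-MET lungs lie between 25.9 and 34.3%, above all 3 Control lungs, and the other tissues spread widely and overlap.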

How the data were processed

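Per the labels and the study's methods, the authors sorted single cells into 384-well plates, mapped reads to mm10 with HISAT, excluded reads with several positions, assigned the rest to exons and deposited UMI counts per gene and well, with cells under 500 UMIs discarded and populations named after MetaCell clustering. The gene annotation version is not given in the sources used here. Doublets were excluded at the sort, and no doublet caller was run here. From the deposited counts, wells of the same annotation, mouse and tissue were summed where at least 10 were present. CPM of sums described levels, and genes at a mean of 50 CPM or more in either population were compared. A log2 ratio of mean CPM + 10 was used for lists, chosen after the data were seen. Against Neut Lcn2, the median over all genes has the opposite sign when ratios of single samples are averaged instead. Expression within Neut Ifit3 was tested with edgeR 4.0.16 (quasi-likelihood test, TMM, Benjamini-Hochberg adjustment), with DESeq2 1.42.0 as an alternative, after a check on simulated counts. SE is the log2 fold change divided by the square root of its F statistic. Shares were compared by exact two-sided permutation tests over samples with at least 10 neutrophils. Mice are the replicates within a tissue, and p-values measure the spread between these samples. Mouse 37 entered the edgeR fit in both MET and Distal normal tissue, and this pairing was not modeled. Same-numbered samples come from the same animal, as the labels give the mouse number. Intervals and limits of a count of 0 cover counting error only. The members, gene lists and named genes were chosen with earlier results of these data known. Named genes were those with a difference of the same direction in every sample, those with the smallest adjusted p, and members of the lists. Alternatives were other filters on cells and counts, other normalization, each sample left out, mouse 17 left out (chosen after seeing the data, as were the splits of per-cell values by mouse and shared samples), and the share of all immune cells. Sequences are from RefSeq, GRCm38.p6.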

Additional observations from a re-analysis of the deposited data

How the results depend on the processing

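Of the settings tried on the shares and on the counts of called genes, 123 gave the same direction and side of the threshold, 5 moved a value past it and 1 reversed the direction. The reversed result was the difference of Distal normal tissue to Relapse-free lungs, which was 0.297 percentage points as a share of all immune cells (exact permutation p = 0.948). In Distal normal tissue that share was highest in mouse 17, at 106 of 752 immune cells, and next in mouse 37, at 24 of 656. MET minus Distal normal tissue became 8.95 percentage points with an exact permutation p of 0.0344 without mouse 17, that is without its Distal normal tissue. Between Distal normal tissue and Relapse-free lungs, DESeq2 called 2 genes (BC100530 and Ifitm6) and edgeR on these tissues alone called 2 (Ifitm6 and Tagln2), and without the MET sample of mouse 37, 1 gene (Tagln2) was called between MET and Distal normal tissue. The causes were not tested. With each sample left out in turn, the differences in share ran from 26.6 to 31.0 points for Pre-MET minus Control, 11.8 to 19.5 for Relapse-free minus Control, 8.79 to 16.4 for Pre-MET minus Relapse-free, -12.0 to -4.34 for Distal normal tissue minus Relapse-free, 4.37 to 8.95 for MET minus Distal normal tissue and -8.31 to -1.64 for core minus margin, and called genes were 0, 0 and 0 to 1. With the mouse as the replicate block, the paired difference of MET minus Distal normal tissue was 9.73 points (6 mice, exact permutation p = 0.0625, smallest possible 0.0313) and that of core minus margin -8.93 (4 mice, p = 0.25, smallest possible 0.125). No paired analysis was possible for genes because only mouse 37 had sums of both MET and Distal normal tissue. Comparisons with Control within Neut Ifit3 were not run, as no Control sample had 10 cells, and a minimum of 20 wells or of 1000 UMIs per cell left too few samples for several comparisons.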
